A study of Mus musculus with 2 samples.

Results

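The calcium store of the ER was examined in splenic DC through 10 genes: the release channels Ryr3, Itpr1, Itpr2 and Itpr3, the pumps Atp2a2 and Atp2a3, the store sensors Stim1 and Stim2, the plasma membrane channel Orai1 and the calcium-binding protein gene Nucb2. They were found by symbol among the 32285 genes of the deposited tables, and each symbol matched 1 gene. Together they held 0.105% of the UMIs of the WT library and 0.108% of those of the H2-Aa cit/cit library. The genes were chosen by the role of their products, but also selected on values of these libraries, the UMIs of both genotypes across cell classes, so the differences between genotypes are given as a description and carry no test. WT mice carried H2-Aa +/+. The others, H2-Aa cit/cit and also called mutant here, were homozygous for the citation allele, so that the MHC-II α chain is deficient in all cells of the animal. Both groups were naive female mice, 4 months old by the labels. DC of 3 mice per genotype were pooled, enriched by positive selection for CD11c, sorted as live CD45.2+ CD11c+ cells and made into 1 library per genotype, so that genotype and library cannot be told apart and no value has a replicate error.

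The ER lumen holds calcium far above the level of the cytosol. SERCA pumps, the products of Atp2a2 and Atp2a3, fill this store, and ryanodine receptors and inositol trisphosphate receptors (the Itpr genes) release it when a surface receptor has been triggered. When the store runs low, STIM proteins in the ER membrane open ORAI channels in the plasma membrane, and many chaperones of the lumen bind calcium and need it to fold proteins.

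The tables held UMI counts of 7814 WT and 11525 mutant cells, with 51020804 and 72652201 UMIs in all and a median of 5492 and 5633 UMIs per cell. H2-Aa itself fell from 5409.7 to 66.2 UMIs in 1000000 UMIs (CPM) over all cells, a log2 ratio of −6.35, as the labels say. Cells were placed in classes by the number of detected marker genes, and a class is called "-like" because the markers, not a deposited annotation, define it. The resting cDC2-like class, with Ffar2, Esam, Cd4 and Clec4a4 among its markers, held 3377 WT and 6324 mutant cells. The mature DC-like class (Ccr7, Fscn1, Socs2) held 1813 and 1156 cells, the cDC1-like class (Xcr1, Clec9a) 472 and 557, and the Ccr2+ cDC2-like class 289 and 864. Proliferating cells numbered 293 and 599, pDC-like cells 157 and 190 and monocyte-like cells 226 and 314. Ungated cells, with too few markers for any class, numbered 974 and 1368. Cells with less than 10% of their UMIs in ribosomal protein genes made up 49.6% of the WT and 30.4% of the mutant resting cDC2-like cells. Because of this gap, values of that class are also given for cells above the limit. Mature DC-like cells had such a gap too, with 61.1% of WT and 45.0% of mutant cells under the limit. Their values are given without a split by ribosomal share. When all cells were clustered without the members, 3 clusters had at least 90% of their cells in 1 library. A cluster of 244 WT and 16 mutant cells, with a median ribosomal share of 35.5%, held 35.4% of the WT but 1.97% of the mutant cDC1-like cells. Another, of 463 WT and 24 mutant cells, held 22.2% of the WT and 2.08% of the mutant mature DC-like cells. The third, of 989 mutant and 3 WT cells, held 12.8% of the mutant resting cDC2-like and 12.7% of the mutant Ccr2+ cDC2-like cells. Several of the values that these clusters move are also given without all 3 of them. A total of 31 cell barcodes occurred in both libraries.

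The positions of the genes are those of the GENCODE vM21 annotation of GRCm38. Ryr3 lies at chr2:112631355-113217096 on the minus strand, covers 585.7 kb with 104 exons in its longest exon chain, and overlaps Aven on the opposite strand. Whether the counting used strand was not given in the sources used here, so reads of Aven and Ryr3 cannot be told apart with certainty, but the level of Aven was 38.6 CPM in WT and 32.1 CPM in mutant resting cDC2-like cells. Itpr1 (chr6:108213096-108551109, plus strand) covers 338 kb and Itpr2 (chr6:146108299-146502223, minus strand) 393.9 kb. Itpr3 (chr17:27057304-27122223, plus strand) overlaps the antisense gene Itpr3os. Atp2a2 lies at chr5:122453513-122502225 on the minus strand and Atp2a3 at chr11:72961169-72993044 on the plus strand. On their own strand, Itpr1, Itpr2 and Atp2a2 each overlap 2 annotated genes and Itpr3 overlaps 1. Stim1 (chr7:102267806-102437319), Stim2 (chr5:53998499-54121057) and Orai1 (chr5:123015074-123030456) all lie on the plus strand. Nucb2 is at chr7:116504369-116540584 on the plus strand, covers 36.2 kb and overlaps no annotated gene.

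Promoters are shown for Nucb2, beside those of the luminal chaperone gene Hspa5 (BiP) and of Creld2, a luminal calcium-binding protein gene. Nucb2 was higher by at least 1.5-fold in H2-Aa cit/cit cells of 6 of 7 classes, and Hspa5 and Creld2 were higher in those classes too. For Nucb2 in the monocyte-like class this did not hold with cells grouped by cluster. The ER stress response elements searched, on both strands, were ERSE (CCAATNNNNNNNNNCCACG), ERSE-II (ATTGGNCCACG) and UPRE (TGACGTG), each of which is bound by factors of the unfolded protein response. CCAAT and CCACG, the ends of ERSE, were also searched alone. The sequences are RefSeq promoters of 250 bases before to 50 after the start of the gene (GRCm38.p6), written 5′ to 3′ on the strand of the gene. Capitals mark, in Nucb2, single CCAAT and CCACG or their reverse complements, in Hspa5 the UPRE and then the ERSE, and in Creld2 the ERSE on the reverse strand. The regions are chr7:116504119-116504418 (plus), chr2:34771840-34772139 (plus) and chr15:88819396-88819695 (plus).
Nucb2: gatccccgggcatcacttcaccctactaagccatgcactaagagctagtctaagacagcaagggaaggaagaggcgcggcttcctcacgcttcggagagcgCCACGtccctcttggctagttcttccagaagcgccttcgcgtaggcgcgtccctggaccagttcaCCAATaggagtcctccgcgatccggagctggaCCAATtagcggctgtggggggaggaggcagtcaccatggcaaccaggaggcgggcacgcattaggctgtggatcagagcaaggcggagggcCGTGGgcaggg
Hspa5: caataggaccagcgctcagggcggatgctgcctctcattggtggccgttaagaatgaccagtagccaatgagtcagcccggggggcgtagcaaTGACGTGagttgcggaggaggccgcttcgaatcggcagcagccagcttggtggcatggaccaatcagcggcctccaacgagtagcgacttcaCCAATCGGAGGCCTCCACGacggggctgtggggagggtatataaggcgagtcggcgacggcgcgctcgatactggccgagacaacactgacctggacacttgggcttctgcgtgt
Creld2: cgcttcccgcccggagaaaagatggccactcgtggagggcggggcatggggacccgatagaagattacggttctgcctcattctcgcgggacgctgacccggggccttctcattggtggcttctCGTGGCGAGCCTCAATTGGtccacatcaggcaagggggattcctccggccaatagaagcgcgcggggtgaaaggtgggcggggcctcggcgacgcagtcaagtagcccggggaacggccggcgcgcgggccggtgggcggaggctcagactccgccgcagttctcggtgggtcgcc
A promoter was at hand for 7 of the 10 members, and none of the 7 held ERSE, ERSE-II or UPRE. Ryr3, Itpr1 and Atp2a2 had no promoter at hand and were not searched. Nucb2 held CCACG at positions 102 (plus) and 290 (minus) and CCAAT at 167 and 199 (plus), counted from 1 at the 5′ end, but not in the order and at the spacing that make up ERSE. A list of ER calcium-binding proteins, chaperones and proteins induced by ER stress had 14 genes with a promoter. Of these, 7 held ERSE (Calr, Canx, Creld2, Dnajc3, Hsp90b1, Hspa5 and Pdia6) and 1, Nucb1, the paralog of Nucb2, held ERSE-II. Among all 32851 mouse promoters of this length, 0.119% held ERSE, 0.0365% ERSE-II, 2.01% UPRE, 32.8% CCACG and 37.4% CCAAT. A match describes letters in this window and not a bound site.

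**Figure D1:**
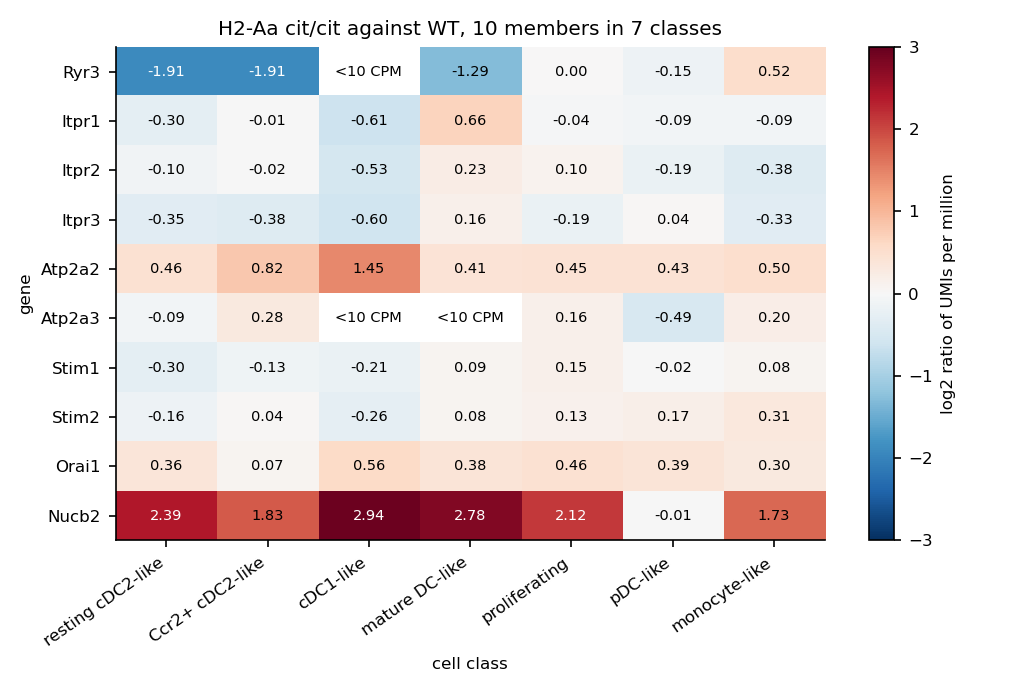
Log2 ratio of CPM in H2-Aa cit/cit over WT cells for the 10 genes (rows) in 7 cell classes (columns), with red for higher and blue for lower in H2-Aa cit/cit. Cells marked <10 CPM had a mean under 10 CPM. Ryr3 was at −1.91 in both cDC2-like classes and at 0.00 in proliferating cells. Nucb2 lay between 1.73 and 2.94 in 6 classes and at −0.01 in pDC-like cells. The value of 1.73, in monocyte-like cells, did not hold with cells grouped by cluster.

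A gene was counted as changed when its CPM differed by at least 1.5-fold, a log2 ratio beyond 0.58 in size, and its mean was at least 10 CPM. As the plot of log2 ratios shows, Ryr3 was lower in H2-Aa cit/cit in both cDC2-like classes and in mature DC-like cells. It was not counted as changed in the others of the 7 classes, and in cDC1-like cells its mean was under 10 CPM. Nucb2 was higher in 6 of 7 classes, and Atp2a2, at a smaller size, in the Ccr2+ cDC2-like and cDC1-like classes. For Nucb2 in monocyte-like cells this did not hold with cells grouped by cluster, as given below. Itpr1 changed in 2 classes and Itpr3 in 1, while Itpr2, Atp2a3, Stim1, Stim2 and Orai1 were counted as changed in none of the 7. In resting cDC2-like cells 2 of 10 members passed, Ryr3 lower and Nucb2 higher, where 5.16% of all 8394 genes passed in either direction. Among the same cells with a ribosomal share of 10% or more, Atp2a2 passed as well, and 3.53% of all genes passed. In Ccr2+ cDC2-like cells 3 of 10 passed (Ryr3, Atp2a2 and Nucb2; 5.81% of all genes). In cDC1-like cells 4 of the 8 members with enough UMIs passed (Itpr1 and Itpr3 lower, Atp2a2 and Nucb2 higher; 16.7%). In mature DC-like cells 3 of 9 passed (Ryr3 lower, Itpr1 and Nucb2 higher; 11.8%). Nucb2 alone passed in proliferating cells (5.81%) and in monocyte-like cells (13.3%), and no member passed in pDC-like cells (10.8%). The members were chosen knowing these contrasts, so nothing is read from the counts against the shares of all genes. Brackets below give 95% intervals that cover counting error only.

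Ryr3 encodes ryanodine receptor type 3, a large calcium release channel best known from muscle and brain. Over all cells WT had 141 CPM of Ryr3 (7186 UMIs) and H2-Aa cit/cit 33.5 CPM (2431 UMIs). Among the 7 classes in WT, it was highest in mature DC-like cells (285 CPM [276, 294]), then in resting cDC2-like cells (138 CPM [133, 144]). Both stood apart from each other and from the rest of the 7. Ccr2+ cDC2-like cells (16.6 CPM), proliferating cells (15.7 CPM), pDC-like cells (12.1 CPM) and monocyte-like cells (9.93 CPM) followed with intervals that overlapped between neighbors. The cDC1-like cells were lowest, at 4.00 CPM. The same 2 classes led in H2-Aa cit/cit, with 117 CPM in mature DC-like and 36.8 CPM in resting cDC2-like cells. The cDC1-like cells were again last, at 2.02 CPM.

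In resting cDC2-like cells the log2 ratio of Ryr3 was −1.91 [−2.01, −1.81], with 2522 UMIs in WT and 1263 in mutant cells. In mature DC-like cells the ratio was −1.29 [−1.40, −1.18], and in Ccr2+ cDC2-like cells it was −1.91 [−2.59, −1.25] from few UMIs. With clusters in place of gates the last value was −0.18, from 12 and 25 UMIs. Without the 3 clusters that 1 library held, Ryr3 was at 139 and 42.03 CPM in resting cDC2-like cells (−1.72 [−1.82, −1.62]) and at 421 and 121 CPM in mature DC-like cells (−1.80 [−1.91, −1.69]). Proliferating cells had 15.7 and 15.8 CPM, a log2 ratio of 0.00 [−0.49, 0.51]. In pDC-like cells (12.1 and 10.9 CPM) and monocyte-like cells (9.93 and 14.3 CPM) the intervals of the ratio included 0. The cDC1-like cells, under the minimum of 10 CPM, had a ratio of −0.98 [−2.03, 0.04]. Ryr3 was found in 24.1% of WT and 8.001% of mutant resting cDC2-like cells. In cDC1-like cells, the class with the lowest level, a UMI was found in 3.81% and 1.97% of cells at a higher median depth (8567.5 and 14340.0 UMIs, against 4489 and 5417). With each cell thinned to 1500 UMIs, the shares were 14.6% [13.4, 15.9] and 4.41% [3.90, 4.96] in resting cDC2-like cells, 25.5% [23.5, 27.6] and 13.2% [11.3, 15.3] in mature DC-like cells, and 0.855% and 0.542% in cDC1-like cells. Cells with a UMI of Ryr3 also held more of them in WT: 3.10 against 2.50 UMIs on average in the resting cDC2-like class and 5.37 against 3.00 in the mature DC-like class. Both the share of cells and the UMIs per such cell were thus lower in H2-Aa cit/cit in these 2 classes. Depth was not matched for the UMIs per such cell, and mature DC-like cells were deeper in WT (median 6903 against 5316 UMIs). The UMIs per such cell went the other way, from few cells, in cDC1-like (1.11 and 1.45), proliferating (1.59 and 2.37), pDC-like (1.50 and 2.57) and monocyte-like cells (1.69 and 2.94).

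**Figure D2:**
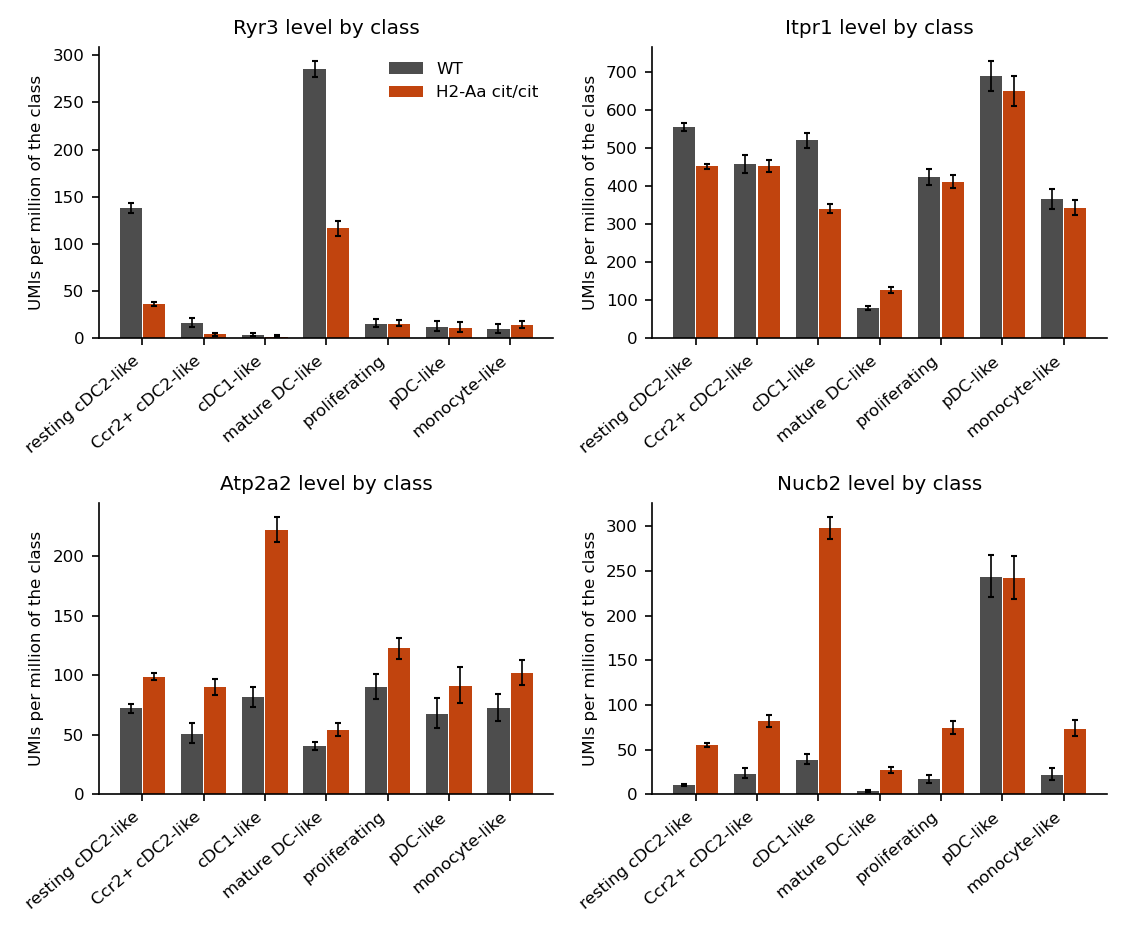
Levels of Ryr3, Itpr1, Atp2a2 and Nucb2 in CPM of the class (linear axis) in 7 cell classes, WT in gray and H2-Aa cit/cit in orange; error bars are exact 95% Poisson intervals that cover counting error only. Ryr3 was highest in mature DC-like cells of both libraries, and Nucb2 was at 243 and 242 in pDC-like cells but rose from 39.0 to 298 in cDC1-like cells.

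The level of Ryr3 moved with the ribosomal share of the cell in both libraries. In WT resting cDC2-like cells it went from 260.5 CPM at a share of 0 to 5% to 17.6 CPM above 25%, and in H2-Aa cit/cit from 91.6 to 4.48 CPM. At each of the 6 levels of ribosomal share it was lower in H2-Aa cit/cit, with log2 ratios between −1.98 and −1.15. Cells with a share of 10% or more had 85.7 CPM in WT and 26.0 CPM in mutant cells, a log2 ratio of −1.72 [−1.86, −1.59], and cells under that limit had 254.5 and 96.8 CPM, a ratio of −1.39. Long genes as a group were higher in cells of low ribosomal share. Among genes over 300 kb, the median log2 ratio of cells under the limit to cells above it was 1.10 in WT (194 genes) and 1.03 in mutant cells (193 genes), against −0.50 and −0.41 for genes under 20 kb. Ryr3 was at 1.57 and 1.898 on this scale, and Itpr1, another long gene, at 0.97 and 0.92. The part of RNA content or RNA quality in these values was not tested.

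Ryr3 was also higher in resting cDC2-like cells that held more mature DC markers. From 0 to 5 such markers it went from 95.8 to 318 CPM in WT and from 18.5 to 161 CPM in mutant cells. At equal marker number the ratio was −2.37 with 0 markers, −2.01 with 2 and −0.98 with 5, so that H2-Aa cit/cit cells were lower at every step and the gap narrowed as markers were added. Within the mature DC-like class, 260 of 1813 WT cells and 43 of 1156 mutant cells held 2 or more markers of cDC1, and the summed level of the 9 cDC1 markers was 249 CPM in WT and 112 CPM in mutant cells. Mature DC-like cells with no cDC1 marker had 432 CPM of Ryr3 in WT and 126 CPM in mutant cells, a ratio of −1.77 [−1.89, −1.65]. Those with 2 or more had 59.5 and 35.9 CPM, a ratio of −0.73 [−1.49, −0.05]. Ryr3 was therefore low in mature cells with cDC1 genes in both libraries, and the ratio was further from 0 without them.

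**Figure D3:**
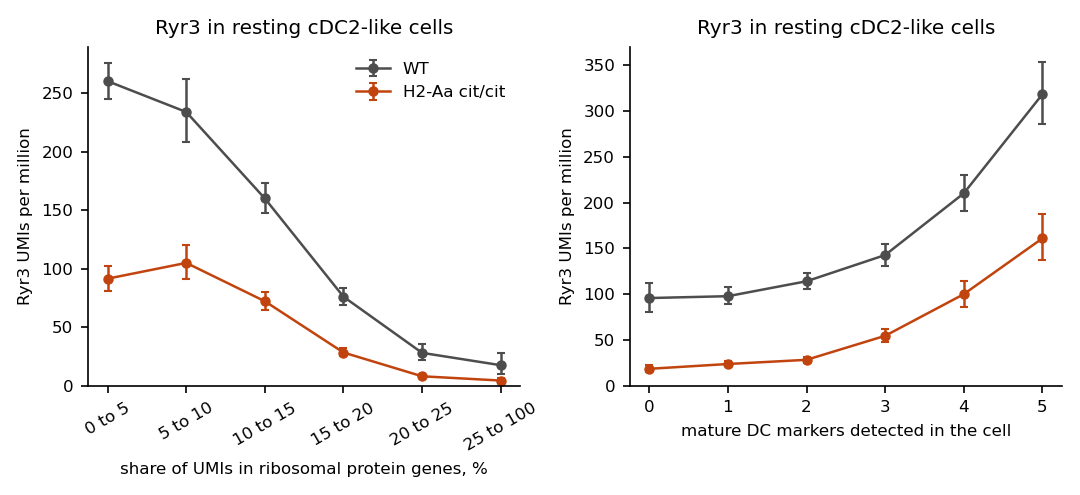
Ryr3 level in resting cDC2-like cells (CPM, linear axis) by the share of a cell's UMIs in ribosomal protein genes (left) and by the number of mature DC markers detected in the cell (right), WT in gray and H2-Aa cit/cit in orange, with exact 95% Poisson intervals for counting error. The WT points lie above the H2-Aa cit/cit points at all 6 steps of both panels.

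The inositol trisphosphate receptors moved little in most classes. Among the 7 classes Itpr1, the type 1 receptor, was highest in pDC-like cells (689 CPM in WT and 649 CPM in mutant cells) and lowest in mature DC-like cells (79.6 and 126 CPM). Its span over the 7 classes was 8.65-fold in WT and 5.14-fold in mutant cells. In resting cDC2-like cells it was at 555 and 452 CPM, a log2 ratio of −0.30 [−0.33, −0.26], which was −0.10 in cells with a ribosomal share of 10% or more. In cDC1-like cells it fell from 520.2 to 341 CPM (−0.61 [−0.69, −0.53]), and without the 3 clusters that 1 library held the values were 633 and 343 CPM (−0.88 [−0.96, −0.81]). The share of cDC1-like cells with a UMI was 70.3% in WT and 89.8% in the deeper mutant cells. Thinned to 1500 UMIs it was 42.1% [37.6, 46.7] and 38.4% [34.4, 42.6], with intervals that overlapped. In mature DC-like cells it rose from 79.6 to 126 CPM (0.66 [0.54, 0.79]). The ratio was smaller without cells that held cDC1 markers. Then the values were 77.7 and 98.4 CPM, a ratio of 0.34 [0.17, 0.51] that is within 1.5-fold, whereas cells with 2 or more cDC1 markers had 102 and 291 CPM. The ratio in mature DC-like cells was also within 1.5-fold without the highest doublet scores (0.29), with clusters in place of gates (0.13) and without the clusters of 1 library (0.47). The ratio in cDC1-like cells was within 1.5-fold as a mean over cells of counts per 10000 (−0.41), without cells under the ribosomal limit (−0.49), with thinned cells (−0.47) and with clusters in place of gates (−0.54).

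Itpr2, the type 2 receptor, was at 117 and 109 CPM in resting cDC2-like cells (−0.10), and at 72.7 and 50.5 CPM in cDC1-like cells (−0.53 [−0.73, −0.32]), just within 1.5-fold, but at 84.2 and 50.8 CPM (−0.73 [−0.94, −0.51]) without the clusters of 1 library. Its largest level among the 7 classes was in pDC-like cells, with 139 CPM in WT and 122 CPM in mutant cells. Itpr3, the type 3 receptor, was at 41.6 and 32.7 CPM in resting cDC2-like cells (−0.35 [−0.48, −0.21]). It was at 13.8 and 9.09 CPM in cDC1-like cells (−0.60 [−1.10, −0.10]), from 69 and 72 UMIs. This ratio was within 1.5-fold as a mean over cells (−0.45) and without cells under the ribosomal limit (−0.45). Without the clusters of 1 library it was −0.86 [−1.36, −0.35]. Mature DC-like cells had 32.7 and 36.5 CPM (0.16). All 3 Itpr genes had ratios below 0 in cDC1-like cells. In resting cDC2-like cells the sign turned for Itpr2 among cells with a ribosomal share of 10% or more (0.08 [−0.02, 0.17]). In mature DC-like cells with no cDC1 marker, Itpr2 was at −0.01 [−0.27, 0.25] and Itpr3 at −0.06 [−0.33, 0.20], so that of the 3 genes only Itpr1 was above 0 there.

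Atp2a2 encodes SERCA2, the pump that most cells rely on to fill the ER store. It was higher in H2-Aa cit/cit in all 7 classes, with log2 ratios from 0.41 to 1.45. In cDC1-like cells it rose from 81.5 to 222 CPM (1.45 [1.29, 1.61]), and the share of these cells with a UMI from 43.0% to 82.4%, or from 10.7% [8.03, 13.8] to 26.4% [22.7, 30.2] after thinning. In Ccr2+ cDC2-like cells it rose from 51.0 to 89.9 CPM (0.82 [0.56, 1.08]). Without the clusters of 1 library the ratio was 1.28 in cDC1-like and 0.76 in Ccr2+ cDC2-like cells. Resting cDC2-like cells had 72.2 and 98.97 CPM (0.46 [0.36, 0.55]), or 71.9 and 86.7 CPM (0.27 [0.17, 0.37]) without those clusters, and those with a ribosomal share of 10% or more 60.0 and 92.6 CPM (0.63). Mature DC-like cells had the lowest levels, 40.8 and 54.3 CPM. In WT the classes were close together, between 40.8 and 90.1 CPM, and in H2-Aa cit/cit the cDC1-like cells stood apart from all others.

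Atp2a3, the gene of SERCA3, which is known from blood cells, was at low levels. It was at 19.3 and 18.1 CPM in resting cDC2-like cells (−0.09 [−0.28, 0.10]) and at 39.0 and 27.8 CPM in pDC-like cells (−0.49 [−1.06, 0.07]). In mature DC-like cells it was at 2.16 and 2.78 CPM, below the level at which a ratio was counted. No direction was shared among classes, with ratios below 0 in 3 of 7.

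The store sensors and the entry channel differed by less than 1.5-fold in all 7 classes. Among the 7 classes Stim1 was highest in mature DC-like cells, at 147 CPM in WT and 156 CPM in mutant cells (0.09), and lowest in cDC1-like cells, at 56.9 and 49.4 CPM. In resting cDC2-like cells it was at 127 and 103 CPM (−0.30 [−0.37, −0.22]), but at 93.1 and 91.1 CPM (−0.03) in those with a ribosomal share of 10% or more. Stim2, which senses smaller losses of store calcium, was at 155 and 139 CPM in resting cDC2-like cells (−0.16) and at 122 and 124 CPM in those above the ribosomal limit (0.01). Orai1, the pore of store-operated entry, was higher in H2-Aa cit/cit in all 7 classes, by log2 ratios from 0.07 to 0.56. It was highest in Ccr2+ cDC2-like cells, where it was at 111 and 117 CPM (0.07 [−0.11, 0.26]). In cDC1-like cells it was at 63.5 and 93.8 CPM (0.56 [0.37, 0.76]), just within 1.5-fold, and in resting cDC2-like cells at 60.3 and 77.2 CPM (0.36 [0.25, 0.46]).

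Nucb2 encodes nucleobindin 2, a calcium-binding protein of the secretory pathway that is also the precursor of nesfatin. Over all cells it rose from 21.2 to 89.1 CPM, with 1084 and 6473 UMIs. In WT it was highest, among the 7 classes, in pDC-like cells, at 243 CPM [221, 268]. Next of the 7 were cDC1-like cells at 39.0 CPM, Ccr2+ cDC2-like cells at 23.0 CPM, monocyte-like cells at 22.1 CPM and proliferating cells at 17.2 CPM. Resting cDC2-like cells had 10.5 CPM and mature DC-like cells 3.97 CPM. In H2-Aa cit/cit the order began with cDC1-like cells, at 298 CPM [286, 310], ahead of pDC-like cells at 242 CPM [219, 267]. The Ccr2+ cDC2-like (81.8 CPM), proliferating (74.7 CPM) and monocyte-like cells (73.6 CPM) were next, with intervals that overlapped between neighbors, and resting cDC2-like (54.9 CPM) and mature DC-like cells (27.1 CPM) were again last. The spread over the 7 classes narrowed from 61.3-fold in WT to 10.98-fold in H2-Aa cit/cit.

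The log2 ratio of Nucb2 was 2.39 [2.18, 2.62] in resting cDC2-like cells, 2.94 [2.72, 3.15] in cDC1-like cells and 2.78 [2.34, 3.23] in mature DC-like cells. Without the 3 clusters that 1 library held these ratios were 1.67 [1.45, 1.91], 2.80 [2.58, 3.04] and 2.35 [1.898, 2.83]. Mature DC-like cells with no cDC1 marker had a ratio of 2.06 [1.49, 2.66]. Those with 2 or more had 4.72 [3.82, 5.72], from 13 UMIs in WT and 52 UMIs in 43 mutant cells. Of the mature DC-like class, 161 of 1813 WT and 184 of 1156 mutant cells were among the highest doublet scores. Over all cells these were 488 of 7814 and 1063 of 11525, and the part of doublets in these ratios was not tested. The ratio of Nucb2 was 1.83 in Ccr2+ cDC2-like cells (1.62 without the 3 clusters), 2.12 in proliferating and 1.73 in monocyte-like cells. The latter value was −0.0937 with clusters in place of gates, from 20 and 11 UMIs. In pDC-like cells the ratio was −0.01 [−0.21, 0.19], and the share of those cells with a UMI was 79.0% in WT and 78.9% in mutant cells. In cDC1-like cells this share went from 26.5% to 85.8% as their median depth went from 8567.5 to 14340.0 UMIs, and thinned to 1500 UMIs it went from 4.49% [2.80, 6.78] to 29.96% [26.2, 34.0]. In resting cDC2-like cells it went from 4.95% to 19.0%, or from 1.75% to 6.35% after thinning. In mature DC-like cells, the class with the lowest level among the 7, it was 2.65% and 9.86% at median depths of 6903 and 5316 UMIs. The cDC1-like cells with a UMI held 1.56 of them on average in WT and 4.94 in mutant cells.

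Nucb2 and Atp2a2 were higher in cells that held more UMIs of ER luminal genes. Resting cDC2-like cells were split by the UMIs of Sdf2l1, Creld2 and Manf, genes of luminal proteins induced by ER stress, in 1500 UMIs of the cell. With none of these UMIs, Nucb2 was at 9.88 CPM in 2737 WT cells and at 26.8 CPM in 3752 mutant cells, a log2 ratio of 1.44 [1.17, 1.71]. With 1 it was at 12.9 and 53.2 CPM, and with 2 at 16.1 and 105 CPM. Cells with 3 or more numbered 8 in the WT and 525 in the mutant library, and in the latter Nucb2 was at 171 CPM. Atp2a2 was at 72.2 and 80.8 CPM in cells with none, a ratio of 0.16 [0.05, 0.27], and at 163 CPM in H2-Aa cit/cit cells with 3 or more. Ryr3 went the other way in H2-Aa cit/cit, from 45.2 CPM in cells with none to 10.7 CPM in cells with 3 or more. In cells with none of these UMIs its ratio was −1.67 [−1.78, −1.56]. The split used genes that differ between the libraries themselves, so these values describe which genes were high or low in the same cells. At 1500 UMIs a cell with none of these UMIs can still hold these RNAs. WT and mutant cells with none are therefore not matched for their level.

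**Figure D4:**
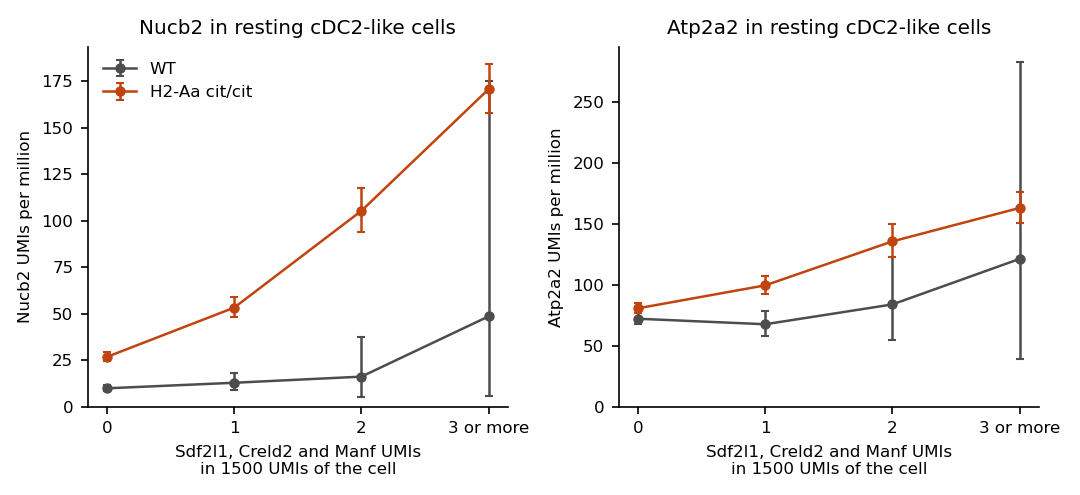
Nucb2 (left) and Atp2a2 (right) in resting cDC2-like cells (CPM, linear axis) by the number of Sdf2l1, Creld2 and Manf UMIs in 1500 UMIs of the cell, WT in gray and H2-Aa cit/cit in orange, with exact 95% Poisson intervals for counting error. Nucb2 in H2-Aa cit/cit climbs from 26.8 to 171, and the WT points at 3 or more rest on 8 cells.

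Of the cells in the cluster with 989 H2-Aa cit/cit and 3 WT cells, 81.9% were resting cDC2-like. In its H2-Aa cit/cit cells Nucb2 was at 164 CPM, Atp2a2 at 152 CPM and Ryr3 at 10.2 CPM. The cluster that held most cDC1-like cells (392 WT and 726 mutant cells) had Nucb2 at 40.7 and 276 CPM and Atp2a2 at 96.5 and 219 CPM. Of the plasma cell markers, whose summed level was 70.7 CPM in WT and 259 CPM in mutant cDC1-like cells, the difference came from Derl3 (1.60 and 145 CPM), a gene of ER protein degradation, and Xbp1 (66.5 and 112 CPM), a factor of the unfolded protein response. Jchain was at 0.40 and 0.38 CPM in these cells, and Sdc1 was at 0 in both libraries.

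The remaining genes of calcium handling were described by 6 lists, of which only 1 had a median far from that of all genes in resting cDC2-like cells. The lists were written with earlier results of these data known. The paper had already named Calr, Canx, Hsp90b1, Sdf2l1, Dnajc3 and Pdia6 as higher in mutant cDC2. Here and below, nothing is therefore read from list counts against the shares of all genes. The luminal list held ER calcium-binding proteins, chaperones and proteins induced by ER stress. Of its 14 genes with enough UMIs, 11 were higher by at least 1.5-fold (2.23% of all genes were). None was lower, and the median log2 ratio was 1.47 against −0.05 for all 8394 genes. The 11 took in Sdf2l1 (2.31), Manf (2.09) and Dnajc3 (1.19), whose calcium binding was not checked. Calu (0.46), Sdf4 (0.06) and Rcn2 (−0.06) were within 1.5-fold. Creld2 was highest, from 10.95 to 58.3 CPM (2.41 [2.20, 2.63]). Rcn2, the gene of reticulocalbin 2, was lowest at 35.4 and 33.9 CPM (−0.06 [−0.20, 0.08]). Hspa5 went from 226 to 834 CPM (1.88) and Calr, the gene of calreticulin, from 187 to 422 CPM (1.17). Nucb1, the paralog of Nucb2, went from 22.3 to 46.4 CPM (1.06 [0.90, 1.22]).

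Among 18 channel partners and regulators in the ER membrane, none was lower by 1.5-fold in resting cDC2-like cells (2.93% of all genes were). The median of this list was −0.05. Homer1, a scaffold of release channels, had the lowest ratio (14.6 and 9.97 CPM, −0.55). None of the 7 genes of store-operated entry or the 10 of plasma membrane and Golgi pumps and exchangers differed by 1.5-fold in resting cDC2-like cells. Nor did any of the 10 of mitochondrial calcium uptake or the 12 of calcineurin and NFAT. Of all genes 5.16% differed by as much in these cells, in either direction. The medians of these lists, in the order named, were 0.03, −0.22, 0.01 and −0.09. The list names are broad. That of pumps and exchangers also held channel genes such as P2rx7, Tpcn1 and Cacnb3, the enzyme gene Cd38 and the mitochondrial exchanger gene Slc8b1. The calcineurin and NFAT list also held phospholipase C genes such as Plcg1, Plcg2 and Plcb2. The outermost genes were Orai3 (0.33) and Trpm7 (−0.32) for store-operated entry, Tpcn1 (0.02) and P2rx7 (−0.44) for pumps and exchangers, Smdt1 (0.52) for mitochondrial uptake, and Plcg2 (0.08) and Plcg1 (−0.38) for calcineurin and NFAT. Some other classes differed. In cDC1-like cells 9.49% of all genes were higher and 7.16% lower. There 3 of 18 channel partners were higher and Homer2 was lower (−3.30). Of store-operated entry 1 of 7 was higher and 1 lower. Of the pump and exchanger list 3 of 8 were lower (Slc8a1, P2rx7 and Cd38), and of mitochondrial uptake 1 of 9 was higher. In mature DC-like cells 7.34% of all genes were higher and 4.45% lower. Of the pump and exchanger list 3 of 9 were lower there: Atp2b1, Slc8b1 (−1.77) and Cacnb3, which is also a marker of that class. Of store-operated entry 1 of 8 was lower. In mature DC-like cells 1 of 10 mitochondrial and 1 of 10 calcineurin list genes (Plcb2) were higher. Of the pump and exchanger list, 4 of 10 were lower in monocyte-like cells (7.55% of all genes were lower). In pDC-like cells 3 of 11 were lower (6.71%), and none of that list was higher in either class.

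**Figure D5:**
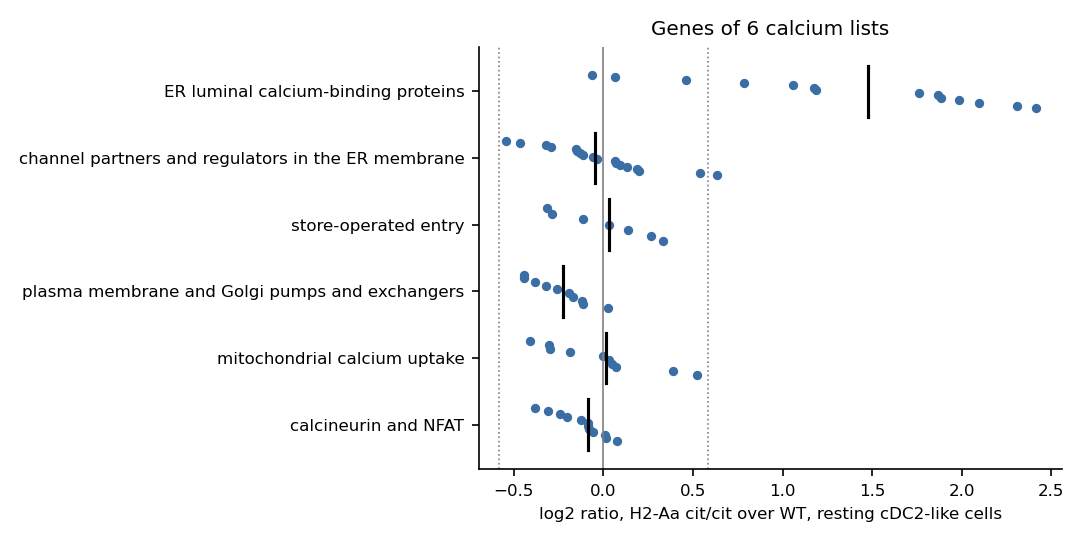
Log2 ratio of H2-Aa cit/cit over WT in resting cDC2-like cells (x axis) for each gene of 6 calcium lists (points, 1 per gene with a mean of at least 10 CPM), with the list median as a black bar and dotted lines at 1.5-fold. The luminal list has its median at 1.47, and the others lie between −0.22 and 0.03.

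The luminal list differed in size between classes. Its median log2 ratio was 2.47 in cDC1-like cells, where 12 of 14 genes were higher (9.49% of all genes), and 1.43, 1.29, 1.31 and 1.07 in Ccr2+ cDC2-like, mature DC-like, monocyte-like and proliferating cells. In pDC-like cells it was 0.61, with 8 of 15 genes higher (4.1% of all genes). There Hspa5 went from 371 to 690 CPM (0.90 [0.76, 1.04]) and Creld2 from 27.0 to 67.6 CPM (1.33 [0.82, 1.85]). Nucb2 thus had a ratio near 0 in a class in which these luminal genes were higher.

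The genes whose levels ran most like those of 4 members were taken from 10937 genes over 18 values, 9 classes in 2 libraries. Here resting cDC2-like cells above and below the ribosomal limit were separate classes, and macrophage-like cells were included. The 18 values share their libraries and the depth of each class, and r is given as a description. For Ryr3 they were Chka (r = 0.97), Gm4651, Dennd4a, Tmod2 and Olfr111 (0.95 each, on a log2 scale with 5 CPM added). For Itpr1 they were Phactr2, Dcaf12, Mbnl1, Sh2b2 and Ube2e1, with r between 0.93 and 0.94. For Atp2a2 they were Lars (0.96), Gmds, Iars, Papss1 and Hdlbp. Lars and Iars encode tRNA synthetases for leucine and isoleucine. For Nucb2 they were Ly6a (0.92), Iigp1, Bet1, Tram1 and Lman1, of which Bet1, Tram1 and Lman1 act in import to the ER or transport from it. Among the members themselves, Ryr3 ran with Stim1 (0.81) and Itpr3 (0.81) and opposite to Nucb2 (−0.72).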

How the data were processed

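Single-cell RNA-seq libraries of sorted splenic DC, 1 per genotype, were read from the deposited gene, barcode and count tables. The authors made the counts with Cell Ranger 5.0.1 against mm10 (GRCm38), per the submitters' processing notes. The deposited values are whole counts of UMIs for each gene in a cell, neither normalized nor corrected for free RNA, and the files hold cells with at least 500 UMIs. All cells were kept and doublets were not removed. The members and all lists were chosen with earlier results of these data known.

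Each cell was placed by its number of distinct detected markers in 14 ordered gates (for example, at least 6 of 12 markers for mature DC and at least 2 of 11 for resting cDC2). These minimums, and the ribosomal limit of 10% (133 WT and 164 mutant cells lay within 1 point of it), were set after the cells had been seen, without use of the members. UMIs were summed per class and library and scaled to the class total (CPM). Levels have exact Poisson, ratios exact conditional binomial and shares Clopper-Pearson 95% intervals, and all cover counting error only. With 1 library per genotype no test was possible. A gene was counted as higher or lower at 1.5-fold with a mean of at least 10 CPM, and a count of 0 was replaced by a floor of 3 UMIs.

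Named genes were the members, the 5 genes most like each of 4 members (Pearson r of log2(CPM + 5) over classes of at least 50 cells), the highest and lowest gene of each list in resting cDC2-like cells, and markers. For 2 lists, 1 of these genes is not reported here. Hspa5, Calr, Calu, Sdf4, Nucb1, Sdf2l1, Manf, Ryr1, Ryr2, Homer2, Slc8a1, Slc8b1, Atp2b1, Cacnb3, Cd38, Plcb2, Derl3, Xbp1, Jchain, Sdc1, Aven and genes named for a motif were chosen after their values or sequences had been seen. So were the splits by ribosomal share, by mature and cDC1 markers and by ER gene UMIs. Python 3.11.15 with numpy 2.4.6, scipy 1.17.1, pandas 2.3.3 and scanpy 1.11.5 was used, with figures by matplotlib 3.10.9. The ratio and the count rule were run on simulated counts, drawn with counting error only for the sum over all cells of each library. They say nothing on differences between mice or libraries, or on the depth of single classes. Of the listed genes, 2 of store-operated entry and 1 exchanger had no entry under their symbol, and 32158 of 32285 genes matched GENCODE vM21.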

Additional observations from a re-analysis of the deposited data

Results flagged for a closer look

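Itpr1 moved in opposite directions in 2 classes, both past 1.5-fold: its log2 ratio of H2-Aa cit/cit to WT was −0.61 in cDC1-like cells and 0.66 in mature DC-like cells. Each class has 1 library per genotype, and the difference between them was not tested. The summed level of the cDC1 markers was 249 CPM in WT and 112 CPM in mutant mature DC-like cells. The ratio of Itpr1 in mature DC-like cells without any of these markers was 0.34.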

How the results depend on the processing

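No paired analysis was possible because there was 1 library per genotype. The log2 ratio of Ryr3 in resting cDC2-like cells (−1.91) was −1.75 as a mean over cells of counts per 10000, −2.14 with clusters in place of gates, −2.03 with 1 more marker required, −1.72 without cells under 10% ribosomal UMIs or without the clusters of 1 library and −1.80 without the highest doublet scores. The ratio of Nucb2 in these cells (2.39) was 1.95 with cells thinned to 1500 UMIs and 1.67 without the clusters of 1 library. The number of members past 1.5-fold there was 1 in place of 2 at a minimum of 50 CPM. The number of member and class pairs past 1.5-fold was 23 in place of 14 with thinned cells, where few UMIs per gene remained. The ratio of Nucb2 in monocyte-like cells turned to −0.0937 with clusters in place of gates, from 20 and 11 UMIs. The ratio of Ryr3 in Ccr2+ cDC2-like cells was −0.18 with clusters, and Itpr1 and Itpr3 in cDC1-like and Itpr1 in mature DC-like cells came within 1.5-fold under several alternatives. Of 747 other values, 650 stayed within the interval of the main value and 64 changed sign, of which 63 belonged to ratios within 1.5-fold. Alternatives chosen after seeing the data were leaving out shared barcodes, mature DC-like cells with cDC1 markers, or the 3 clusters with at least 90% of their cells in 1 library. Leaving out mature DC-like cells with cDC1 markers left every value of the other classes as it was, and few barcodes were shared. Such values count among the 650, which therefore overstates how little the ratios moved.

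Depth limits the small classes most: Ryr3 in Ccr2+ cDC2-like, proliferating, pDC-like and monocyte-like cells and Atp2a3 in most classes rest on few UMIs. With 1 library of 3 pooled mice per genotype, differences between mice, sorts and library preparations cannot be told apart from genotype.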

Other observations

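In macrophage-like cells (140 WT and 87 mutant) Nucb2 was at 26.9 and 92.2 CPM (21 and 38 UMIs, log2 ratio 1.78 [0.97, 2.62]). Itpr1 was at 196 and 362 CPM in these cells, and Ryr3 at 47.4 and 4.85 CPM from 37 and 2 UMIs. NK-like cells (34 and 29) held the highest levels of Itpr2 (284 and 258 CPM), of Stim1 (206 and 258 CPM) and of Atp2a3 (132 and 69.3 CPM) among the classes described, from 58 and 41, 42 and 41, and 27 and 11 UMIs. Nucb2 had 0 UMIs in WT and 2 in mutant NK-like cells. Ungated cells, of lower depth, had Ryr3 at 178 and 36.2 CPM and Nucb2 at 10.3 and 66.5 CPM.

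Of the other ryanodine receptor genes, Ryr1 in resting cDC2-like cells stood at 31.5 CPM (WT) and 33.0 CPM (H2-Aa cit/cit; log2 ratio 0.07 [−0.08, 0.21]). Ryr2 had 0 and 3 UMIs there. In cDC1-like cells Ryr1 was at 28.2 and 19.8 CPM (−0.51 [−0.84, −0.17]).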
